A study of Mus musculus with 16 samples.

Results

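IgG is the antibody control of AutoCUT&RUN, an automated form of CUT&RUN in which a protein A-micrococcal nuclease (MNase) fusion is brought to chromatin by an antibody and cuts the DNA near it. An IgG with no chromatin target leaves the nuclease untethered, so its fragments show where free MNase cuts. The IgG libraries described here are 4 of the 16 libraries of the series: all those with the IgG antibody, 2 from KO and 2 from WT haploid spermatids. Their distinct fragments, each chromosome, start and end counted once, were read on chromosomes 1 to 19 and on the mitochondrial genome (chrM).

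The study asked what loss of the short histone variant H2A.B does to spermatid chromatin, and profiled H3K4me3, H3K27me3, H3K9me3 and IgG in the same animals. KO mice carried a triple knockout of H2A.B (H2afb1, H2afb2 and H2afb3, all on chromosome X), made by genome editing in hybrid B6;SJLF1/J zygotes and backcrossed to C57BL/6J. WT mice were their siblings, 1 for each KO animal, all unmated and 2 months old. Spermatids were sorted by DNA content with Hoechst and propidium iodide, and the background antibody was a rabbit anti-mouse IgG (Abcam, ab46540). In the labels each replicate number goes with 1 leading code that reads like a date, shared by KO and WT. The labels name no siblings. Libraries of the same replicate number were taken as pair 1 (KO 1 and WT 1) and pair 2 (KO 2 and WT 2). They were compared within pairs as well as by genotype.

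MNase cuts accessible DNA, prefers A and T at the cut, and trims inward until a bound protein stops it. A whole nucleosome leaves a fragment of nucleosomal length, while linker DNA, open promoters and partly unwrapped nucleosomes leave shorter ones. The mitochondrial genome holds no nucleosomes. H2A.B is a testis histone with a short C-terminal tail that wraps DNA less tightly than H2A. Fragments of at most 120 bp are called small and those of at least 150 bp large, and their ratio is given as log2 (small / large), which is 0 when both are equally many.

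Sites at which untethered MNase cut repeatedly are shown first, because they make its base preference visible. They are examples and not a ranking of all sites, so they do not show how much of the background came from repeats. Each line is a window of 30 reference bases (GRCm38, plus strand, 5′ to 3′), with the base on each side of the cut in capitals. The first 5 are mitochondrial. They lie, in order, in mt-Rnr2 (the large ribosomal RNA), mt-Nd1 (a subunit of respiratory complex I), mt-Co2 (a subunit of cytochrome c oxidase), mt-Rnr2 again and mt-Nd5 (complex I).
chrM:2357-2386: ggaccaagttacccTAgggataacagcgca
chrM:3473-3502: cttcctaggaccccTAtactatatcaattt
chrM:7501-7530: agcagtcccctcccTAggacttaaaactga
chrM:1366-1395: tgaatcaactcgtcTAtgtggcaaaatagt
chrM:13385-13414: atccctaactctccTAgacttgatctggtt
The next 6 are autosomal. The window on chromosome 8 lies in an intron of Dlgap2, that on chromosome 6 in an intron of Chl1, those on chromosome 2 between genes next to Gm10800 and Gm10801, and that on chromosome 11 between genes, 503 kb from the nearest protein-coding gene.
chr11:25100187-25100216: cgttccattccattCTactctataatatgc
chr8:14306799-14306828: atgggcagcagtgaTAgtgagagggcccag
chr6:103649252-103649281: ttgtaactcattgaTAtacactgttctaca
chr2:98665197-98665226: tttgtagaacagtgTAtatcaatgaggaaa
chr2:98666469-98666498: ttgtaactcattgaTAtacactgttctaca
chr2:98666397-98666426: tgtgtttttcagtgTAactcactcatctaa
The cut fell between T and A in 5 of the 5 mitochondrial windows and in 5 of the 6 autosomal ones. The window on chromosome 6 and 1 on chromosome 2 hold the same 30 bases, and another on chromosome 2 shares 24 bases with them on the opposite strand, so a read from any of these copies can be placed at another. The mitochondrial site in the window that starts at position 2357 had 2 fragment ends in KO 1, 11 in KO 2, 3 in WT 1 and 6 in WT 2. The chromosome 11 site had 9, 2, 15 and 26 in the same order, and the chromosome 8 site 24, 8, 4 and 6. Replicate 2 held the higher counts at the first of these in both genotypes, WT held more at the second and KO more at the third in both pairs, from libraries in which KO was the deeper of each pair.

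The preference was present in every library and was stronger in replicate 2. The base just before the cut was A or T in 70.7% of the ends of small autosomal fragments in KO 1, 81.2% in KO 2, 71.4% in WT 1 and 75.9% in WT 2, against 57.6% to 59.3% A or T in the fragments as a whole. The first base of the fragment was A in 44.8%, 72.2%, 46.0% and 61.9% in the same order. Both replicate 2 libraries lay above both replicate 1 libraries, and KO lay on opposite sides of WT in the pairs, so the end bases separated the replicate numbers and not the genotypes. On chrM the first base of small fragments was A in 52.1% (KO 1), 75.9% (KO 2), 60.7% (WT 1) and 73.7% (WT 2), with the same split by replicate number.

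Depth was low. The authors' lists held 797505 to 1590267 IgG fragments per library, and distinct autosomal fragments numbered 236269 in KO 1, 175406 in KO 2, 140669 in WT 1 and 140181 in WT 2, since 81.4% to 84.1% of the autosomal entries repeated the coordinates of another entry. Within 1 kb of each H2afb gene IgG gave 0 to 2 fragments in any library, too few to check the genotype. At gene starts, H3K4me3 in the same animals was above the median protein-coding gene in 4 of 4 libraries for 24 of 25 spermatid genes, 17 of 22 meiotic prophase genes, 3 of 12 spermatogonial genes and 0 of 17 markers of testis somatic cells. H3K4me3, the mark of active promoters, had spermatid medians of 18.4 to 27.9 and somatic medians of 0 to 0.489 FPM, which is fragments for every 1000000 distinct autosomal fragments of the library. Each animal gave 1 IgG library, and each replicate number has its own leading code. The spread between replicates thus holds animal and whatever that code stands for together, and these cannot be told apart.

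Fragments listed once and fragments listed many times lay in different sequence. Between 48.8% (KO 2) and 62.3% (WT 1) of distinct autosomal fragments were listed once, and 23.1% (WT 1) to 36.9% (KO 2) were listed 5 or more times. After the fall from 1 copy, the smoothed distribution rose again to a second peak, at 20 copies in KO 1, 22 in WT 1, 9 in KO 2 and 10 in WT 2. The study's methods state that PCR duplicates were removed, yet the lists hold these repeats, so what a repeated entry stands for was not established. Of the fragments listed once, 93.3% (KO 1), 88.3% (KO 2), 93.1% (WT 1) and 89.2% (WT 2) had their midpoint in soft-masked repeats, which make up 33.5% of assembled autosomal bases. Of those listed 5 or more times the shares were 34.98%, 30.3%, 35.7% and 31.1%, close to the genome. On chrM, by contrast, 2.95% to 6.67% of distinct fragments were listed once and 74.8% to 87.4% were listed 5 or more times. Autosomal entries listed once were thus mostly in repeats, and the length results below are given for both classes.

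**Figure D1:**
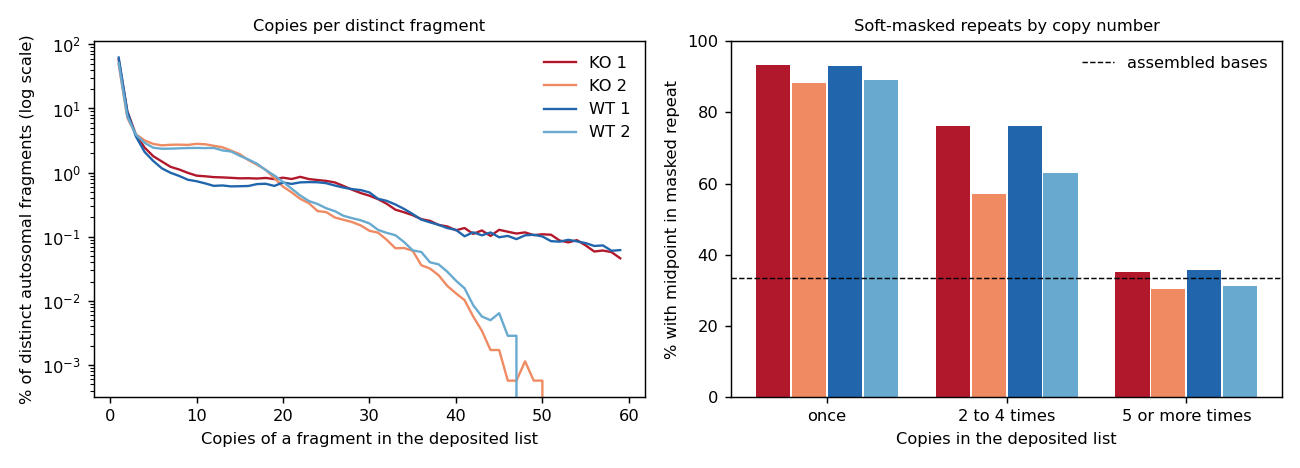
Left, share of distinct autosomal IgG fragments (log scale) against the number of times a fragment is listed, 1 line for each library. Right, share of fragments with a midpoint in soft-masked repeats by copy class, 1 bar for each library, with the genome's 33.5% as a dashed line. Fragments listed once lie between 88.3% and 93.3%, and those listed 5 or more times between 30.3% and 35.7%.

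Away from gene starts, untethered MNase covered each kind of place about in proportion to its length. By midpoint, 29.7% to 30.3% of the distinct fragments of KO 2, WT 1 and WT 2 and 28.4% of those of KO 1 were intronic, against 36.9% of assembled bases. Sequence within 50 kb of a gene held 23.0% to 23.7% of fragments and 22.8% of bases, and sequence farther away held 31.3% (KO 1) to 36.9% (KO 2) of fragments and 35.1% of bases. Exons held 3.08% to 4.15% of fragments and 3.48% of bases. These 4 places were thus covered within 0.768 and 1.19 times their share of the genome in every library.

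Gene starts, within 1 kb of the 5′ end of a protein-coding gene, stood apart. They cover 1.63% of bases and took 13.1% of fragments in KO 1, 6.05% in KO 2, 9.43% in WT 1 and 7.30% in WT 2, which is 8.04, 3.71, 5.77 and 4.47 times their share. Replicate 1 was higher than replicate 2 in both genotypes, and the genotypes overlapped. KO was higher than WT by 3.71 percentage points in pair 1 and lower by 1.24 points in pair 2, and the mean difference of 1.23 points was smaller than the spread between replicates (pooled SD 3.70, exact two-sided permutation test, p = 1). With 2 libraries against 2 this test cannot give a p below 0.333, which holds for each such test here. With every deposited fragment counted in place of distinct ones, the gene start shares were smaller, at 8.45% (KO 1), 4.02% (KO 2), 7.41% (WT 1) and 4.40% (WT 2).

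That surplus lay at a few gene models in repeats. The 20 of 20807 gene starts that touch the densest bins had a count of 27279 of the 31953 summed over all starts in KO 1, 8099 of 10993 in KO 2, 11092 of 13727 in WT 1 and 8566 of 10519 in WT 2, where a fragment near several starts counts at each. The gene starts with the most IgG fragments were Gm10800 on chromosome 2, 8 gene models on chromosome 9 between 3.0 and 3.04 Mb (Gm10722, Gm10718, Gm10717, Gm10719, Gm11168, Gm10721, Gm17535 and Gm10720) and Gm21738 on chromosome 14. Gm10800 (chr2:98666547-98667301, minus strand) had 4728 distinct fragments at its start in KO 1, 1798 in KO 2, 1987 in WT 1 and 1964 in WT 2, counts in which KO 1 was highest and the other 3 lay close together. Gm10722 (chr9:3000922-3002330) had 3324, 913, 1264 and 919. These are predicted genes with no named function. The chromosome 9 tract of 40 kb (chr9:3000001-3040000) alone took 15.3% of all autosomal IgG fragments in KO 1, 5.85% in KO 2, 10.3% in WT 1 and 7.74% in WT 2, with 95.6% to 96.3% of midpoints in masked repeat. Between 3.19% and 4.90% of its fragments in each library were listed 5 or more times. The tract also took 13.9% to 18.2% of the H3K9me3 fragments of the same animals and 0.426% to 1.47% of their H3K4me3 fragments. H3K9me3 is the mark of constitutive heterochromatin, which includes repeat arrays near centromeres.

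The 5 densest 10-kb bins were the 4 of this tract, which hold 9 protein-coding gene models (the 8 above and Gm10715), and chr2:98660001-98670000 with Gm10800 and Gm10801. In all, 185 bins of 10 kb lay above the 0.1% densest (over 62 fragments summed over the 4 libraries). They held 24.7% of autosomal fragments in KO 1, 11.6% in KO 2, 22.6% in WT 1 and 15.95% in WT 2, so replicate 1 was again above replicate 2. Of fragments outside them, 2.37% (KO 1), 1.71% (KO 2), 2.17% (WT 1) and 1.53% (WT 2) lay at gene starts, near the 1.63% of bases. KO minus WT was then 0.194 points in pair 1 and 0.176 points in pair 2, with KO 2 between the WT libraries.

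Outside the dense bins most gene starts had no fragment at all. Of 20787 protein-coding gene starts there, 17118 were without a fragment in KO 1, 18311 in KO 2, 18679 in WT 1 and 19073 in WT 2, and the highest count at a single start was 22. Rps29, a protein of the small ribosomal subunit, led with 11 (KO 1), 10 (KO 2), 7 (WT 1) and 19 (WT 2). Phf21a, which encodes a reader of unmethylated histone H3, had 11, 11, 7 and 9. Rab8b, a small GTPase of membrane traffic, had 3, 5, 22 and 3, all small in every library, and WT 1 held most of its total. These 3 starts were chosen after their values were seen. The KO libraries were the deeper of each pair, and no direction is read from these counts.

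Averaged over those starts, small fragments peaked just before the start. In the 200 bp before it, small midpoints were 2.62 times as dense as in the outer flanks in KO 1, 1.65 times in KO 2, 2.55 times in WT 1 and 1.83 times in WT 2. Large midpoints were at 1.33, 1.06, 1.46 and 0.873 times. Small exceeded large in 4 of 4 libraries, and replicate 1 exceeded replicate 2 in both genotypes. KO 1 and WT 1 lay close together, and KO 2 lay slightly below WT 2, so the genotypes overlapped.

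**Figure D2:**
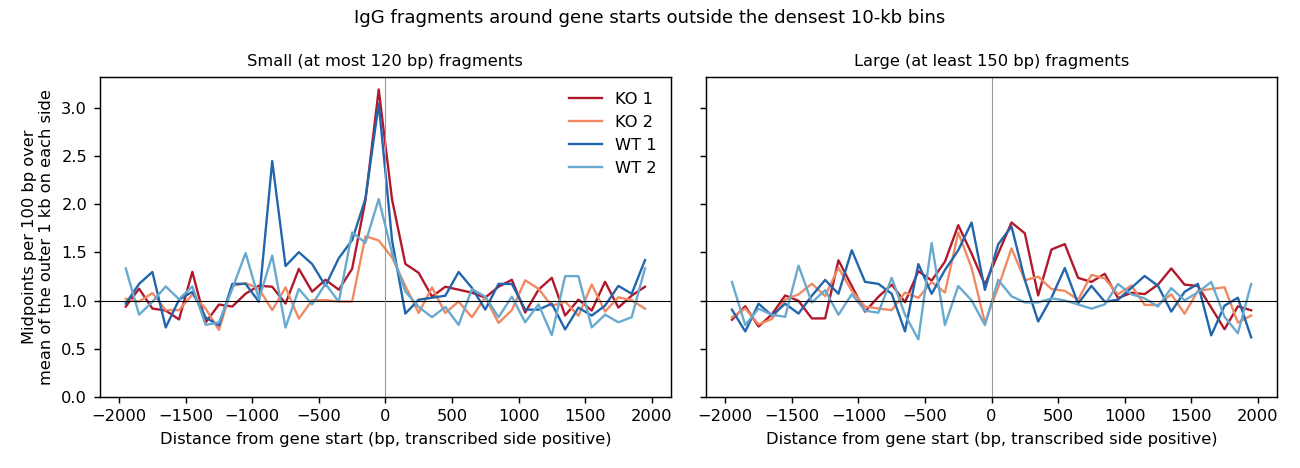
Midpoints of small (left) and large (right) IgG fragments per 100 bp around gene starts outside the densest 10-kb bins, divided by their mean in the outer 1 kb on each side, 1 line for each library. Small fragments in the 200 bp before the start reach 1.65 to 2.62 times the flanks, and large fragments 0.873 to 1.46 times.

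At gene starts, density was highest where H3K4me3 was highest. Gene starts were put in 4 classes of equal size by H3K4me3 fragments summed over the 4 H3K4me3 libraries. Outside the dense bins, the lowest class had 0.234, 0.228, 0.1996 and 0.241 IgG FPM per kb (KO 1, KO 2, WT 1 and WT 2) and the highest class 0.973, 0.783, 0.966 and 0.531. The highest class was denser than the lowest in every library, by the most in replicate 1, and the genotypes overlapped in each class. From class 2 to class 3, with class 1 the lowest, density rose in KO 1, KO 2 and WT 1. It fell in WT 2, from 0.291 to 0.278. Within the highest class log2 (small / large) was 0.48, 0.17, 0.00 and -0.01. KO was above WT in both pairs, by 0.48 and 0.19. In the lowest class it was 0.56, 0.39, 0.81 and -0.12, on 292 to 575 fragments for each library. KO was below WT there in pair 1 by 0.25 and above it in pair 2 by 0.50. In class 2 KO minus WT was -0.47 in pair 1 and 0.76 in pair 2, and in class 3 it was 0.52 and 0.16.

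The chosen gene groups were read over whole gene spans (from 1 kb before the start to the end), beside 0.267 to 0.314 FPM per kb over all 20720 protein-coding genes with no dense bin. Within 1 kb of the starts of those 20720 genes density was higher, at 0.476, 0.398, 0.450 and 0.335 (KO 1, KO 2, WT 1 and WT 2). Starts weigh more in short spans, and span length was not adjusted for. Spermatid genes (25) had 0.662, 0.655, 0.507 and 0.579, above the span background in 4 of 4 libraries. The same held for the ribosomal protein, zinc finger, meiotic prophase and vomeronasal receptor genes. The last of these had 0.322, 0.376, 0.328 and 0.425, against a background of 0.267, 0.314, 0.271 and 0.298. Ribosomal protein genes (70) had 0.509, 0.438, 0.418 and 0.712, zinc finger genes (388) 0.410, 0.412, 0.526 and 0.398, and meiotic prophase genes (22) 0.351, 0.368, 0.347 and 0.435. Rps29 alone gave 11 of 47, 10 of 30, 7 of 23 and 19 of 39 of the ribosomal span fragments. No dense bin lay in 387 of the zinc finger and 1127 of the 1128 olfactory receptor spans. The dense bin at Zfp407 held 245, 42, 415 and 45 fragments, beside 1301, 969, 993 and 748 over all zinc finger spans. Olfactory receptor genes (1128) lay at 0.256, 0.318, 0.282 and 0.288. Hox genes (39), the patterning genes of the embryo, lay at 0.268, 0.271, 0.244 and 0.283. Keratin genes (113) ranged from 0.239 to 0.328, vomeronasal receptor genes (329) from 0.322 to 0.425, testis somatic markers (17) from 0.1999 to 0.331, spermatogonial genes (12) from 0.122 to 0.254 and clustered histone genes (67) from 0.0801 to 0.679. Genotypes overlapped in every one of these groups except the spermatid genes, where both KO libraries exceeded both WT libraries by 0.155 in pair 1 and 0.0756 in pair 2 on 36 to 79 fragments. Among the best covered starts in that list were Odf2, an outer dense fibre protein of the sperm tail, with 3, 1, 1 and 2 fragments, and Acr, the acrosomal protease acrosin, with 2, 0, 1 and 2. Ldhc, the testis lactate dehydrogenase, had the same total as Acr (3, 1, 0 and 1).

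Length was compared next, since it is what the study read in the marked libraries. Over the autosomes each KO library held more small fragments, relative to large ones, than the WT library of its pair. log2 (small / large) was 0.60 in KO 1, 0.39 in KO 2, 0.22 in WT 1 and -0.08 in WT 2. Both KO libraries lay above both WT libraries, and within each genotype replicate 1 lay above replicate 2. The means were 0.50 ± 0.15 in KO and 0.07 ± 0.21 in WT (SD, n = 2), with KO higher by 0.39 in pair 1 and 0.47 in pair 2. The mean difference of 0.43 exceeded the pooled replicate SD of 0.18 (p = 0.333 by the exact permutation test). Median length was 95 bp, 115 bp, 118 bp and 138 bp in the same order, 23 bp shorter in KO in each pair.

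The length classes show which fragments differed. Fragments of at most 40 bp made up 13.8% (KO 1), 7.75% (KO 2), 14.7% (WT 1) and 7.01% (WT 2), lower in KO in pair 1 and higher in pair 2. Fragments of 41 to 80 bp made up 30.1% (KO 1), 26.2% (KO 2), 24.1% (WT 1) and 19.5% (WT 2), and KO was higher in both pairs. Those of 81 to 120 bp made up 13.3%, 18.2%, 11.8% and 18.0%, a split by replicate. Those of 150 to 250 bp made up 16.9%, 20.6%, 23.6% and 20.9%, with a gap of 6.65 points in pair 1 and 0.26 points in pair 2. Fragments over 250 bp made up 20.7%, 19.1%, 19.9% and 26.1%, lower in KO in pair 2 but not in pair 1. The pairs thus agreed in direction at 41 to 120 bp and at 150 to 250 bp, and differed in direction at the shortest and the longest lengths.

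**Figure D3:**
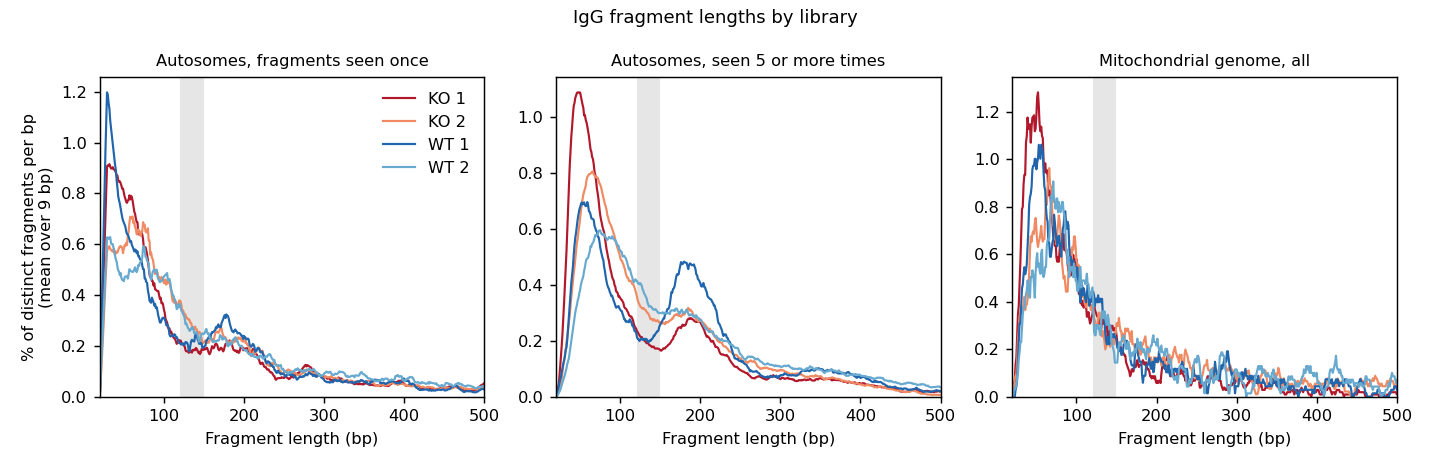
Length distributions of IgG fragments listed once on the autosomes (left), listed 5 or more times on the autosomes (middle) and on chrM (right), as a share of distinct fragments for each bp averaged over 9 bp. The grey band marks the lengths between small and large. Among fragments listed 5 or more times, those of 41 to 80 bp make up 35.9% in KO 1 and 28.3% in KO 2 against 24.6% in WT 1 and 19.2% in WT 2.

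Fragments listed 5 or more times carried the larger difference. Their log2 (small / large) was 0.74 (KO 1), 0.38 (KO 2), -0.40 (WT 1) and -0.24 (WT 2), so KO and WT lay on opposite sides of 0. KO exceeded WT by 1.14 in pair 1 and 0.63 in pair 2, and the mean difference of 0.88 stood against a pooled SD of 0.19 (exact permutation test, p = 0.333). Among fragments listed once the values were 0.60, 0.45, 0.43 and 0.11, and KO minus WT was 0.17 and 0.35. Outside masked repeats, where 65.7% to 69.9% of fragments were listed 5 or more times, the values were 0.63, 0.22, -0.20 and -0.43, with pair differences of 0.83 and 0.65. Inside them the values were 0.60, 0.50, 0.34 and 0.11, with 0.26 and 0.39. Within masked repeats alone, fragments listed 5 or more times differed by 0.97 and 0.58 and those listed once by 0.19 and 0.36, so the larger difference went with copy number there too. Outside repeats, fragments listed once had -0.52, -0.53, -0.44 and -0.96, and KO was lower by 0.08 in pair 1 and higher by 0.43 in pair 2.

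By place, KO had a higher ratio than the WT library of its pair in 12 of 12 comparisons over 6 places. These share libraries and are not independent. Over the spans of the gene groups above, on far fewer fragments, direction was less uniform. KO minus WT was -1.77 and -0.24 for Hox genes. In pair 1 alone it was negative for spermatid (-0.36), testis somatic (-1.08) and clustered histone genes (-0.28). In the remaining groups KO was higher in both pairs. Far from genes the ratio was 1.13 (KO 1), 0.65 (KO 2), 0.41 (WT 1) and 0.17 (WT 2), higher in KO by 0.73 and 0.48. Near genes it was 0.79, 0.48, 0.35 and 0.01, and in introns 0.78, 0.39, 0.44 and -0.07, where KO 2 fell between the WT libraries. Exons were poorer in small fragments, at -0.36, -0.40, -0.86 and -0.74. There the replicates were closest, with a mean difference of 0.42 and a pooled SD of 0.07 (exact permutation test, p = 0.333).

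Over gene bodies (exons and introns) the KO mean was 0.47 ± 0.22 and the WT mean 0.09 ± 0.32 (SD, n = 2), a difference of 0.38 (0.31 and 0.45 within pairs) against a pooled SD of 0.27 (exact permutation test, p = 0.333). Over all intergenic sequence they were 0.78 ± 0.29 and 0.25 ± 0.20 (SD, n = 2), a difference of 0.54 (0.60 and 0.48 within pairs) against a pooled SD of 0.25 (exact permutation test, p = 0.333). In gene bodies KO 2 (0.318) and WT 1 (0.316) were equal to within 0.01, so the genotypes met there, while in intergenic sequence they stayed 0.19 apart. Among gene body fragments listed once, KO was lower by 0.04 in pair 1 and higher by 0.25 in pair 2.

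At gene starts fragments were long in every library. The ratio was -0.88 (KO 1), -1.01 (KO 2), -1.16 (WT 1) and -1.38 (WT 2), and 46.2% to 52.2% of fragments exceeded 250 bp. KO was higher than WT by 0.28 in pair 1 and 0.36 in pair 2, and the mean difference of 0.32 exceeded the pooled SD of 0.13 (exact permutation test, p = 0.333). Most of these fragments came from the dense bins, and those of the chromosome 9 tract had ratios of -1.47, -1.95, -2.01 and -2.11. Without the dense bins the gene start ratio was 0.48 (KO 1), 0.21 (KO 2), 0.25 (WT 1) and -0.14 (WT 2), KO higher by 0.24 and 0.35 within pairs, with KO 2 just under WT 1. Set against intergenic sequence of the same library, gene starts were lower by 1.87 (KO 1), 1.60 (KO 2), 1.55 (WT 1) and 1.48 (WT 2). This contrast was more negative in KO by 0.32 in pair 1 and 0.11 in pair 2, with a mean of -0.22 (exact permutation test, p = 0.333). Without the dense bins it was -0.62, -0.37, -0.14 and -0.18. KO was then more negative by 0.48 and 0.20. The contrast was not stable: without fragments shared with another library it was more negative in KO by 0.50 in pair 1 and less negative by 0.02 in pair 2, and without KO 1 the mean was -0.08.

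**Figure D4:**
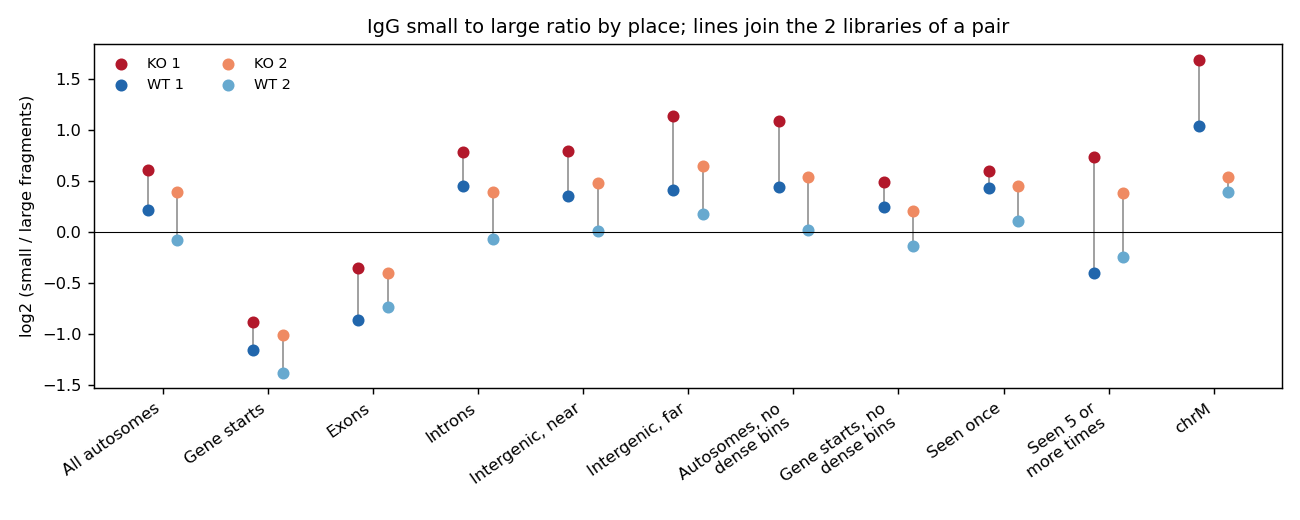
log2 (small / large) of IgG fragments by place, copy class and chrM, 1 point for each library, with a line joining the KO and WT library of each pair. KO lies above WT in each pair and column, and gene starts fall from -0.88 to -1.38 with all bins and from 0.48 to -0.14 without the densest ones.

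On chrM, which has no nucleosomes, small fragments prevailed in every library. The ratio was 1.69 (KO 1), 0.53 (KO 2), 1.03 (WT 1) and 0.39 (WT 2), from 798, 549, 459 and 401 small fragments. As a share of small and large fragments, small ones were 76.3% (95% Wilson interval 73.6 to 78.8), 59.2% (56.0 to 62.3), 67.2% (63.6 to 70.6) and 56.6% (53.0 to 60.2). These intervals cover counting error only. Replicate 1 lay above replicate 2 in both genotypes. KO was higher by 0.65 in pair 1, where the intervals did not meet, and by 0.15 in pair 2, where they did. The mean difference of 0.40 was smaller than the pooled SD of 0.66 (exact permutation test, p = 0.667). The marked libraries of the same animals differed in the same direction on chrM, by 0.49 (pair 1) and 0.42 (pair 2) with H3K4me3, by 0.56 and 0.71 with H3K27me3 and by 0.55 and 0.33 with H3K9me3. Counting IgG, KO was higher in 8 of 8 comparisons, which come from the same 2 pairs and are not independent. The marked libraries held from 146 (H3K9me3, WT 1) to 3135 (H3K4me3, KO 2) distinct chrM fragments. ChrM took 0.486% (KO 1), 0.569% (KO 2), 0.533% (WT 1) and 0.548% (WT 2) of distinct fragments, with no separation of genotypes (mean difference -0.01 points, exact permutation test, p = 1).

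The histone mark libraries of the same animals are set beside IgG here. Outside the dense bins, KO minus WT in log2 (small / large) was 0.64 in pair 1 and 0.52 in pair 2 with IgG. It was 0.62 and 0.56 with H3K9me3, 0.68 and 0.86 with H3K27me3, and 0.78 and 0.98 with H3K4me3. At gene starts there, it was 0.24 and 0.35 for IgG and 0.68 and 0.95 for H3K4me3. The difference between antibodies was not tested.

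The autosomes were then read in 1-Mb bins. The median bin had 72 fragments in KO 1, 63 in KO 2, 44 in WT 1 and 48 in WT 2. Bins rich in masked repeat were denser in each library (Spearman's rho 0.50 to 0.68 over 2403 bins, a description, since bins share a library), as were bins dense in H3K9me3 of the same animal (0.48 to 0.65), while bins rich in G and C were sparser (-0.36 to -0.60). With H3K27me3 of the same animal rho was -0.25 to -0.33 and with H3K4me3 -0.01 to -0.36, so at this scale H3K4me3 did not go with higher IgG density as it did at gene starts. Of 2413 bins tested with limma-voom, 0 (0%) differed in coverage between KO and WT at a Benjamini-Hochberg adjusted p under 0.05, and 39 had an unadjusted p under 0.05. Without WT 2, 3 bins were called. Bins named by the lowest p in each direction did not pass the test. Chr9:32000001-33000000 had 102, 60, 23 and 32 fragments (KO 1, KO 2, WT 1 and WT 2, 432, 342, 164 and 228 FPM), and chr8:123000001-124000000 had 62, 49, 66 and 81 (262, 279, 469 and 578 FPM). Both KO libraries were above both WT libraries in the first and below them in the second, with adjusted p = 0.997 for each.

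The small to large ratio was higher in KO in 80.9% of bins in pair 1 and 78.1% in pair 2, and in both pairs in 63.6%. A shift of whole libraries alone would put many bins higher in both pairs. The 63.6% thus does not show that single bins agree between pairs, which was not tested. The median bin differed by 0.65 in pair 1 and 0.51 in pair 2. After each library was centred on its median bin, limma called 3 of 2413 bins (0.124%), all lower in KO relative to the median bin. The fit weighted each value by its fragment counts. In bins with many fragments its SE and p thus rest largely on counting and little on the spread between libraries. Without weights 0 bins were called. The bin chr9:3000001-4000000 had log2 ratios of -1.46 (KO 1), -1.92 (KO 2), -2.00 (WT 1) and -2.09 (WT 2), from 9489, 2099, 2845 and 1999 small fragments. KO was above WT in both pairs, but relative to the median bin it was lower by 0.27 ± 0.04 (SE, limma adjusted p = 2.97e-05). Relative to the median bin KO minus WT was -0.15 in pair 1 and -0.38 in pair 2. The bin chr2:98000001-99000000, which holds Gm10800, had 0.06, -0.23, -0.24 and -0.55 and was lower by 0.37 ± 0.07 (adjusted p = 0.000995). The bin chr11:75000001-76000000 had 158, 46, 197 and 35 small and 67, 21, 8 and 12 large fragments, log2 ratios of 1.23, 1.11, 4.54 and 1.51. KO was below WT in both pairs, and relative to the median bin it was lower by 2.51 ± 0.50 (adjusted p = 0.00325), with WT 1 standing apart through its 8 large fragments. With the pair as a replicate block 0 bins were called, without centring 0, without KO 1 or without KO 2 0, without WT 1 4 and without WT 2 8.

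**Figure D5:**
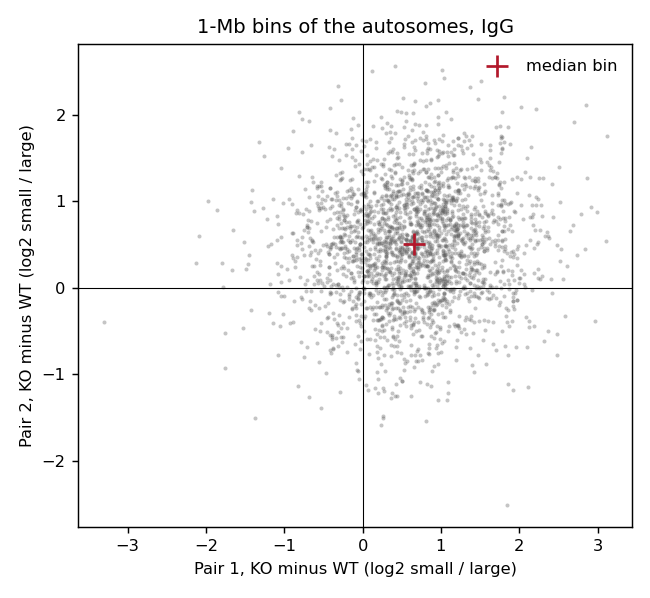
KO minus WT in log2 (small / large) of IgG fragments for each 1-Mb autosomal bin, pair 1 on the horizontal and pair 2 on the vertical axis, with the median bin as a cross at 0.65 and 0.51. KO is higher on both axes in 63.6% of bins, and agreement of single bins between pairs was not tested.

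Over gene spans, 1092 protein-coding genes had at least 40 fragments over the 4 libraries, and limma-voom called 0 (0%) at an adjusted p under 0.05, with 17 at an unadjusted p under 0.05. Without WT 2, 1 gene was called. The genes with the lowest p that differed alike in both pairs missed the test. Eif4g3, a translation initiation factor whose span touches a dense bin, had 57, 12, 157 and 47 fragments (241, 68.4, 1116 and 335 FPM). It was lower in KO in both pairs (limma-voom adjusted p = 0.9999). Pde3a, a cyclic nucleotide phosphodiesterase, had 21, 9, 26 and 22, and Frmd4b 29, 11, 51 and 22. In the other direction, Dlgap2, a synaptic scaffold gene, had 213, 249, 96 and 93 (902, 1420, 682 and 663 FPM). Its span holds 1 of the windows shown above and touches a dense bin. Khdrbs2, an RNA-binding protein, had 42, 44, 14 and 18, and Immp2l, a mitochondrial inner membrane peptidase, 64, 84, 26 and 32. In all 3 of these both KO libraries were above both WT libraries once scaled to depth, without passing the test.

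With the pair as a replicate block, limma-voom called 21 of 1092 genes (20 lower and 1 higher in KO). In this fit 136 genes had an unadjusted p under 0.05. With 4 libraries it leaves almost no replicate spread to estimate, so its p rest largely on counting and on spread shared over genes. WT 1 was the highest library in 20 of the called genes, 15 went the same way in pair 2, and 10 had a dense bin in their span. Prim2, a subunit of DNA primase, led with 11, 6, 95 and 7 fragments, so WT 1 held most of its fragments. The 1 gene higher in KO, Rps6kc1, a kinase-like protein, had 39, 56, 3 and 15. Both were chosen after their values were seen.

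Libraries shared fragments with identical coordinates. Of distinct autosomal IgG fragments, 14.1% (KO 1), 10.3% (KO 2), 15.1% (WT 1) and 11.5% (WT 2) also occurred in another of the 16 libraries, most often in H3K9me3 libraries (5.57% to 7.34% with each). KO 1 and WT 1, which have the same leading code in their labels, shared 5630 fragments (2.38% and 4.002% of each). This was more than any other pair of IgG libraries (2073 to 2790). KO 2 and WT 2, which also have a common leading code, shared the fewest (2073). Leaving all shared fragments out gave an autosomal KO minus WT of 0.51 in place of 0.43.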

How the data were processed

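AutoCUT&RUN libraries were sequenced by the authors as 25-base pairs and aligned to mm10 with Bowtie2 (2.3.4.3 in the submitters' processing notes). The deposited files list fragments as chromosome, start, end and length, so each value is a coordinate or a length in bp, with no count or normalization. The methods state that the authors removed PCR duplicates with Picard, but the lists repeat many coordinates. These repeats were collapsed here. The libraries, places and gene lists were chosen with earlier results of these data known. Groups and pairs came from the labels. Deviations of 1-Mb bins from the genotype mean correlated at 0.30 between libraries of the same replicate number (2403 bins). With 2 libraries a genotype, deviations within a genotype are mirror images, so both pairs give the same single value. The pairing was taken from the replicate numbers and leading codes of the labels, which do not state which animals were siblings.

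Fragments were placed by midpoint on protein-coding genes of GENCODE M21 (GRCm38), and repeats were the soft-masked bases of RefSeq GRCm38.p6. Library values were compared by exact two-sided permutation (Python 3.11.15, numpy 2.4.6, scipy 1.17.1). Bins and gene spans with at least 40 fragments over the 4 libraries, and bins with at least 10 small and 10 large fragments for the length ratio (0.5 added to each), were tested with limma 3.58.1 (R 4.3.3), with Benjamini-Hochberg adjustment at 0.05. These steps were tested on simulated data. For limma, 200 features were changed and replicate numbers did not differ, unlike in the real libraries, so no result here rests on that test. Named features were, in each direction, the 3 called (or, with none called, the 3 of lowest p) that differed alike in both pairs, the 10 fullest gene starts, the 5 fullest 10-kb bins and the 2 fullest starts of each gene list. Alternatives changed the collapse of repeats, depth, length limits, place rules, dense bins, filters, scaling, bin size, the replicate block and single libraries. Intervals cover counting error only.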

Additional observations from a re-analysis of the deposited data

How the results depend on the processing

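Of 152 alternatives, 6 reversed the direction of a mean difference and 11 moved a count of calls by over 1.5 times. The others kept direction or count, but not always size. The mean length difference, counting the place contrast, kept its direction in 92 of 94. These include the replicate block, which cannot change a mean, and alternatives in which the pairs differed in direction. Among gene body fragments listed once, pair 1 was -0.04. With large fragments limited to 150 to 250 bp, pair 2 on chrM was -0.08. On autosomes (0.43) the mean difference was 0.84 with every deposited fragment, 0.26 among fragments listed once and 0.28 without WT 2. Over gene bodies (0.38) it was 0.86 with every deposited fragment, 0.11 among fragments listed once, 0.23 without KO 1, 0.16 without WT 2 and 0.61 without WT 1. At gene starts (0.32) it was 0.54 with every deposited fragment, 0.19 among fragments listed once and 0.21 without WT 2. Over intergenic sequence (0.54) it was 0.88 with every deposited fragment and 0.34 without KO 1. The place contrast (-0.22) was -0.34 with every deposited fragment, -0.08 without KO 1 and -0.35 without KO 2. The chrM ratio (KO minus WT 0.40) was -0.64 among fragments listed once, an alternative chosen after seeing the data, and -0.18 to 0.98 with 1 library left out. The gene start share (1.23 points) ran from -2.31 (without KO 1) to 4.78 points (without KO 2) with 1 library left out, and was 0.166 points without WT 2. The chrM share (-0.01 points) was 0.101 points after thinning to 760224 fragments, 0.00127 points among fragments listed once, and -0.0548 to 0.0287 points with 1 library left out. The causes were not tested.

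With the pair as a replicate block, the length differences kept their values, as means of pair differences must. On autosomes the value was 0.43 (exact sign-flip p = 0.5, the smallest 2 pairs allow). With the block, 0 bins differed in coverage, 21 gene spans were called and 0 bins in length ratio. The block changed no other call. With 1 library left out, called bins in coverage ran from 0 to 3, gene spans from 0 to 1 and bins in length ratio from 0 to 8. Gene spans called were 2 with every deposited fragment and 5 with no filter on low counts, and bins in length ratio were 0 without weights and 0 without centring. With 140181 to 236269 distinct autosomal fragments, single gene starts were not comparable, and 2 libraries a genotype cannot give an exact p below 0.333.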
